A study of Mus musculus with 9 samples.

Results

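The malignant lymphoma UBTF landscape comprised 11038 peaks that were shared, within 200 bp of summit position, by the 50000 best peaks of both chromatin immunoprecipitation sequencing (ChIP-seq) libraries from malignant Eµ-Myc pre-B cells. Each list was ranked by the score of the authors' peak caller after peaks on the rDNA sequence had been set aside, and a member was a peak of malignant replicate 1 with a summit of malignant replicate 2 inside that window. The members were 22.1% of the 50000 peaks of replicate 1 (95% exact binomial interval 21.7 to 22.4%, counting error only), which is the 22.1% that the rule called over that list, and lay in 10202 regions. All 6 UBTF lists of the series held 1796553 peaks outside rDNA. By the same rule the wild type lists shared 32415 peaks and the premalignant lists 5433.

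Pre-B cells came from bone marrow. The malignant cells were sorted as positive for B220 and negative for IgM and IgD, and the wild type and premalignant cells by high B220, low IgM and low IgD, so that the gate differed with the stage. Eµ-Myc is a transgene that places Myc under the immunoglobulin heavy chain enhancer, so that it is expressed in the B lineage, and it was carried as a heterozygote on C57BL/6. Wild type mice without the transgene and premalignant transgenic mice were taken at 4 to 6 weeks, and malignant mice at 10 to 20 weeks, when they had lymphoma. Each stage had 2 UBTF libraries, made with an antibody to both isoforms of UBTF, and an input sample that was not analysed here. By the study's description, replicates of sorted cells were separate animals, but the labels do not tie a library to an animal. Age and disease cannot be told apart between malignant and other cells. Wild type and premalignant mice were female, and malignant mice were of both sexes, with the sex behind each library not given.

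UBTF (upstream binding factor) is an HMG box protein that binds across active ribosomal RNA genes, keeps their chromatin open and helps RNA polymerase I to assemble at their promoters. Outside rDNA it is known to bind at many RNA polymerase II promoters with accessible chromatin. MYC is a transcription factor that raises ribosome production, and UBTF is one of its known targets.

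The sequence at the summits placed most members in repeated DNA, and a few examples show the kinds. The best member of all, ranked 1 in both lists, lay 3 bp before the start of the microRNA gene mmu-mir-689-2 inside Zc3h7a. It had 106 24-mers in common with the second best member, and whether both match the rDNA repeat was not tested. Its CG dinucleotides are in capitals, and all sequences are from the plus strand of mm9.

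mmu-mir-689-2, chr16:11144115-11144315: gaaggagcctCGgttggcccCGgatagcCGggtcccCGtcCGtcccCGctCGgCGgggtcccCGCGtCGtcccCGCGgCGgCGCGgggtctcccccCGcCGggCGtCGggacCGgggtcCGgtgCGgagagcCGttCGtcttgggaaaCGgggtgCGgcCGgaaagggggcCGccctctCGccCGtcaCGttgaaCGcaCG

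Tandem repeats were the next kind, and the most frequent among the members had the dinucleotide units GA and CA (TC and TG on the other strand). Telomere repeats, with the unit TTAGGG or its complement, were counted apart from these.

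Dispersed sequence with many near-identical copies made up the greater part of the members. For each of 5 families, the best ranked member that holds the 24-mer shared by most windows of the family is shown, with that 24-mer in capitals. The letters A to E give the order of the stretches along 1 long element, as described further on.

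stretch A, chr1:188892749-188892949: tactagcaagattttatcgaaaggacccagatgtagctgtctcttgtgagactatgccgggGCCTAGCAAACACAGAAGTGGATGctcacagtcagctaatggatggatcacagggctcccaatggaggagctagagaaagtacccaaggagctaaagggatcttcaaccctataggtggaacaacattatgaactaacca
stretch B, chrX:72605176-72605376: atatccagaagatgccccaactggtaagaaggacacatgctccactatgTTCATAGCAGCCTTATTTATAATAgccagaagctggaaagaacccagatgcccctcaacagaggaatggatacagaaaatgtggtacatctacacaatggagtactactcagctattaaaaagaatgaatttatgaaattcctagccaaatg
stretch C, chr6:11647044-11647244: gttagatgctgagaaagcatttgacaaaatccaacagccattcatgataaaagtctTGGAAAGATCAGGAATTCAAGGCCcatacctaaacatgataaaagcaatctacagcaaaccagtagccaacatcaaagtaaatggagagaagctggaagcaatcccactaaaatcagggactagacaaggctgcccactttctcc
stretch D, chr12:96091039-96091239: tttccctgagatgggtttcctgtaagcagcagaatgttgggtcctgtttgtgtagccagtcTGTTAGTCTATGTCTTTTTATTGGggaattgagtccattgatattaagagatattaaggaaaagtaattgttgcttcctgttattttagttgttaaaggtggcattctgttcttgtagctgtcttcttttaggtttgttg
stretch E, chr6:58516039-58516239: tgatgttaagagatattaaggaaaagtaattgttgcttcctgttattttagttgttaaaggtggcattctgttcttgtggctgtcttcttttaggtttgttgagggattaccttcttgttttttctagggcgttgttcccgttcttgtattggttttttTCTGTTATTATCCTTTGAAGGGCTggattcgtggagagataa

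For comparison, the commonest dispersed family of the peaks that each malignant list held alone is shown in the same way. By their commonest spacing these lay on opposite sides of stretches A to E, and they are called the ends of that element here.

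held by replicate 2 alone, chr4:20216351-20216551: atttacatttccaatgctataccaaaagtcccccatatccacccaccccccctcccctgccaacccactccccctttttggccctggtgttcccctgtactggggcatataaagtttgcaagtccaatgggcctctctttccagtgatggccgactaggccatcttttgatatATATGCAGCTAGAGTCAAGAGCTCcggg
held by replicate 1 alone, chr15:32325365-32325565: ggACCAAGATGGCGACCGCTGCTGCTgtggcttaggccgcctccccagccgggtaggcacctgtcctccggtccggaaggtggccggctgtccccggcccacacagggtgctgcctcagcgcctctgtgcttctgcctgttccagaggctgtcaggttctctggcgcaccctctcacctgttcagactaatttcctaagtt

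A member at a protein-coding start looked different again. The bases just outside the exons of Gbas are shown because they belong to the best such member (ranks 634 and 2934) in single copy sequence within 100 bp of a start, among those with at least 60 bases in a row outside exons. GC boxes are in capitals.

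Gbas upstream, chr5:130230873-130230937: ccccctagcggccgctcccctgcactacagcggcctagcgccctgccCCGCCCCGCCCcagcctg

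The libraries differed before any comparison was made. Outside rDNA the malignant lists held 279021 and 563195 peaks in replicates 1 and 2, against 116093 and 184574 in wild type and 78074 and 575596 in premalignant cells. The best 50000 were therefore 17.9% and 8.88% of the malignant lists. Peaks of the best 50000 had a median width of 3465 and 3782 bp in the malignant libraries and 6744 bp in premalignant replicate 2, but 2014 to 2083 bp in the other 3 libraries. Premalignant replicate 2 stood apart from its partner in nearly every measure below, so results that rest on it are given per library. It also had 46 best peaks in single copy sequence of chromosome Y, where each of the other 5 libraries had at most 2. Peak lists hold no read counts, so the depth behind them is unknown.

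The best peaks of malignant replicate 1 were matched far more often than the rest. Of its first 1000 peaks 827 were members (82.7%), of the next up to rank 5000 34.1%, from there to rank 10000 26.2%, from there to rank 20000 22.6%, and of the last 10000 16.2%. The corresponding shares of wild type replicate 1 matched by wild type replicate 2 were 100%, 99.4%, 92.5%, 77.3% and 40.4%. For the premalignant pair they were 88.6%, 36.1%, 10.2%, 4.84% and 8.63%. For scale, 0.779% of mm9 lay within 200 bp of a best summit of malignant replicate 2.

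**Figure D1:**
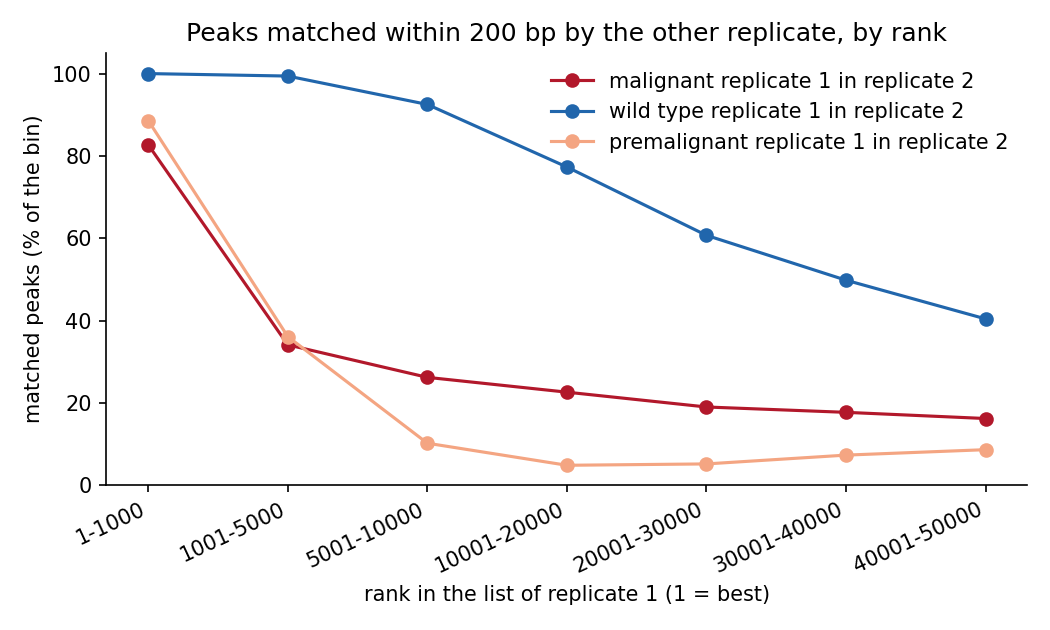
Share of the peaks of replicate 1 (vertical axis, %) with a summit of replicate 2 of the same stage within 200 bp, both lists cut to their best 50000, by rank bin (horizontal axis, bins of unequal size). The malignant pair falls from 82.7% to 16.2%, close to the premalignant pair up to rank 5000, while the wild type pair stays at or above 40.4%.

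Members lay close to their partners, with a median distance of 35 bp and quartiles of 10 and 102 bp, and 242 coincided to the base. The 200 bp limit cut no natural gap: 1292 peaks of replicate 1 had their partner more than 150 and up to 200 bp away, and 1065 more than 200 and up to 250 bp away. The distance followed the sequence. It was 5 bp at telomere repeats, 10 bp at GA repeats and 13 bp at CA repeats, but 72 bp in high copy sequence. Ranks in the malignant lists were related across the members (Spearman's rho 0.405, n = 11038). This value is a description, because members were selected on both ranks and neighbouring summits share a region.

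By position, the members were mostly intergenic. Of the 11038, 68.4% were intergenic, 25.3% intronic (2796), 6.09% in the promoter class (within 1 kb of any annotated transcript start; exact interval 5.65 to 6.55%) and 0.208% exonic (23). Those classes cover 57.7%, 35.7%, 4.15% and 2.42% of mm9, so introns and exons held fewer members than their share of bases. The unmatched peaks had similar shares: promoters were 6.65% of them in replicate 1 and 4.64% in replicate 2, and introns 22.9% and 23.9%. The shares also moved with the matching rule: the promoter class was 8.14% when only the best summit of each region was used and 3.71% when overlapping regions were counted as shared.

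By sequence, the members differed from the unmatched peaks in the upper ranks. A tandem repeat, meaning at least 40 bp of a unit of 1 to 6 bp within 100 bp of the summit on either side, was present at 28.0% of members (3096; exact interval 27.2 to 28.9%). It was present at 12.8% of unmatched peaks of replicate 1, 5.85% of those of replicate 2 and 2.23% of all tiles of mm9 of the same length. Another 60.9% of members (6719) had no tandem repeat but a median of at least 100 copies of their 24-mers in mm9, a kind called high copy here. Low copy windows made up 4.93% and single copy windows 6.15%. The tandem repeat share ran from 49.5% with the best 20000 of each list to 17.3% with the best 100000 and 10.6% when overlapping regions were matched, so it describes the best-ranked and best-aligned members above all. Among the first 1000 peaks of replicate 1 it was 76.2% of members and 13.9% of unmatched peaks, in the 10000 after rank 20000 it was 12.2% and 11.8%, and in the last 10000 the order was turned, with 8.17% of members and 11.8% of unmatched peaks. High copy shares turned likewise, from 13.5% and 39.9% among the first 1000 to 83.7% and 76.6% among the last 10000.

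**Figure D2:**
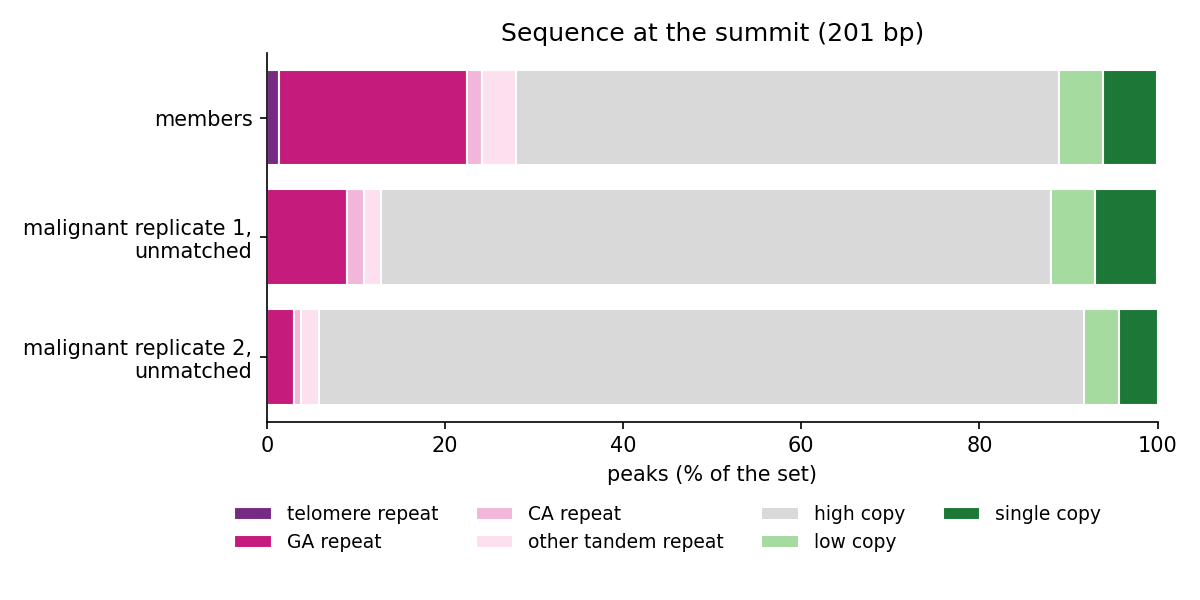
Sequence within 100 bp of the summit (horizontal axis, % of each set) for the 11038 members and for the unmatched peaks among the best 50000 of each malignant list. Members have the longest GA repeat segment, 21.2% against 8.99% and 3.05%, and the shortest high copy segment, 60.9% against 75.2% and 85.9%.

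Telomere repeats were the most completely shared kind. Of 146 such summits among the best 50000 of malignant replicate 1, 144 were members (98.6%), although only 177 such tiles of mm9 hold at least 40 bp of this repeat. They took 8 of the 10 best places and 57 of the best 100 by mean rank. Of these members, 2 lay within 10 kb of the end of a chromosome sequence, so nearly all were placed at arrays inside the chromosome sequences of mm9. Whether reads from chromosome ends were placed at these arrays was not tested. An array in an intron of Greb1, an oestrogen-regulated gene, ranked 12 and 7 in malignant replicates 1 and 2, 31 and 23 in wild type and 14 and 9 in premalignant cells. An array on chromosome Y ranked 7 and 6 in the malignant lists and 16 and 10 in wild type, while neither premalignant list held it. It was 1 of 20 members on chromosome Y, of which the best 50000 of wild type replicates 1 and 2 held 7 each and those of premalignant replicates 1 and 2 held 8 and 7. Wild type and premalignant mice were stated to be female, and whether these peaks come from reads of other chromosomes was not tested. Of all telomere repeat members, 100% lay in the best 50000 of each wild type list, 98.6% in that of premalignant replicate 1 and 99.3% in that of premalignant replicate 2.

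GA repeats were the largest tandem group. They numbered 2345 members (21.2%), with a median run of 53 bp. Of the GA repeat summits in the best 50000, 40.1% of 5846 were matched in replicate 1 and 66.3% of 3538 in replicate 2. The runs of unmatched GA repeats were no shorter, with medians of 56 and 54 bp. The wild type lists held 98.9% and 99.5% of the GA repeat members and premalignant replicate 1 held 98.2%, but premalignant replicate 2 held 51.2%. That contrast rested on the rank limit, since the full list of premalignant replicate 2, with 575596 peaks, held 93.8% of them. CA repeats numbered 187 and showed the same order across the other lists, 97.3%, 97.9%, 95.2% and 44.4%, with 94.7% in the full list of premalignant replicate 2. The remaining 420 tandem repeat members were led by the units ACAG (107) and AGGC (50).

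High copy members behaved in the opposite way. The wild type best 50000 held 8.72% and 8.92% of them and premalignant replicate 1 held 15%, while premalignant replicate 2 held 49.9%. In the full lists these shares were 20.1%, 34.6%, 24.1% and 87.3%. They ranked lower, with medians of 26295 and 20032 in malignant replicates 1 and 2, against 5037 and 9092 for GA repeats. Their median GC content was 40.3%, near the 41.8% of mm9 tiles. The study's methods name bowtie2 and default options. With these, a read that fits several copies equally well is placed at 1 of them at random. The position of a high copy member is therefore uncertain. The same limit holds for many tandem repeat members, whose 24-mers had a median of 144 copies at GA repeats and 1612 at CA repeats. At telomere repeats the median was 1, but it was 1753 at an array on chromosome 11 (ranks 10 and 4).

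**Figure D3:**
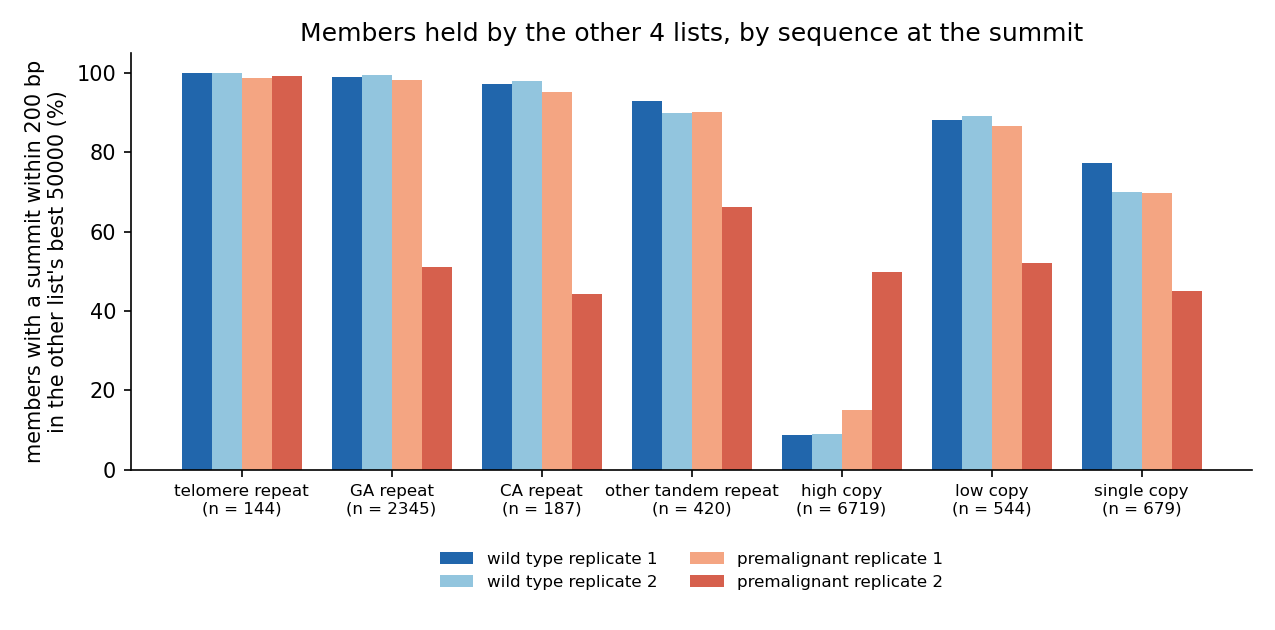
Share of members (vertical axis, %) with a summit within 200 bp in the best 50000 of each of the other 4 lists, by sequence at the summit (horizontal axis, with the number of members). In all kinds but the high copy one, the wild type lists and premalignant replicate 1 hold between 69.8% and 100% of members, and in the high copy kind only premalignant replicate 2 holds more than 15%.

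Of the 6719 high copy members, 3655 lay outside the 6 families described here, and 5 of the 6 joined into 1 element. Stretch A was held by 520 members, B by 707, C by 546, D by 389 and E by 555, with between 11609 (E) and 35591 (B) copies of the shared 24-mer in mm9. The remaining family (347 members) consisted of interrupted GA repeats, with runs below the 40 bp limit, and went the other way: each wild type list and premalignant replicate 1 held 99.7% of it in the best 50000, and premalignant replicate 2 held 63.4%. These families, and the spacing that follows, were looked for after the values had been seen. The commonest distance from the 24-mer of the family shown for replicate 2 alone was 148 bp to that of stretch A, 686 bp to B, 2422 bp to C, 4211 bp to D and 4408 bp to E. Within 50 bp bins around those distances lay 54.2%, 44.3%, 26.0%, 22.5% and 19.4% of its 33297 copies. The 24-mer of the family held by replicate 1 alone lay at the far side, 5996 bp away, for 26.1% of its 6947 copies. The letters are those of the LINE-1 retrotransposon, the commonest long interspersed element of the mouse, as far as general knowledge tells, since no repeat annotation was used here.

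Along this element the malignant libraries differed by position. At its GC-poor interior both lists had summits: of the peaks of malignant replicate 1 in stretch E 30% of 1852 were matched, and of those of replicate 2 34.4% of 1472. In stretch B 29.6% of 2385 and 16.0% of 4742 were matched. Replicates 1 and 2 had 2423 and 1870 best peaks in stretch C, and 1605 and 1736 in stretch D. At stretch A replicate 2 had 5232 best peaks against 1189 in replicate 1. At the end just beyond stretch A replicate 2 had 6978 best peaks and replicate 1 had 530. At the opposite end replicate 1 had 2584 best peaks and replicate 2 had 1. The families at both ends were picked from peaks that 1 malignant list held alone. Their contrast between the malignant lists therefore follows in part from that choice. The end held by replicate 1 had a median GC content of 64.7% against 49.3% at the end held by replicate 2 and 38.3% in the members of stretch C.

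The other 4 lists split along the same line. The GC-rich end held by replicate 1 alone (1990 peaks absent from the full list of replicate 2) was also in the best 50000 of wild type replicates 1 and 2 for 73.8% and 39.2% of its peaks, in that of premalignant replicate 1 for 66.3%, and in that of premalignant replicate 2 for 0.352%. The opposite end, with 4212 peaks held by replicate 2 alone, was in premalignant replicate 2 for 22.2% and in each of the other 3 lists for at most 0.902%. Members of the interior stretches were in premalignant replicate 2 for 40.6% (B) to 59.4% (D), in premalignant replicate 1 for 2.50% (A) to 13.7% (E) and in the wild type lists for at most 1.92%. Lists of different lengths were limited to the same rank, and the shares were higher in the full lists. There the GC-rich end was in wild type replicates 1 and 2 for 92.2% and 85.4%, in premalignant replicate 1 for 77.7% and in premalignant replicate 2 for 39.3%. The opposite end was in wild type replicate 2 for 26.7%, in premalignant replicate 2 for 88.9% and in the other 2 lists for less than either. Members of stretch E were in the wild type lists for 24.3% and 30.5%, and in the premalignant lists for 30.1% and 88.5%. The part of peak width was not tested.

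**Figure D4:**
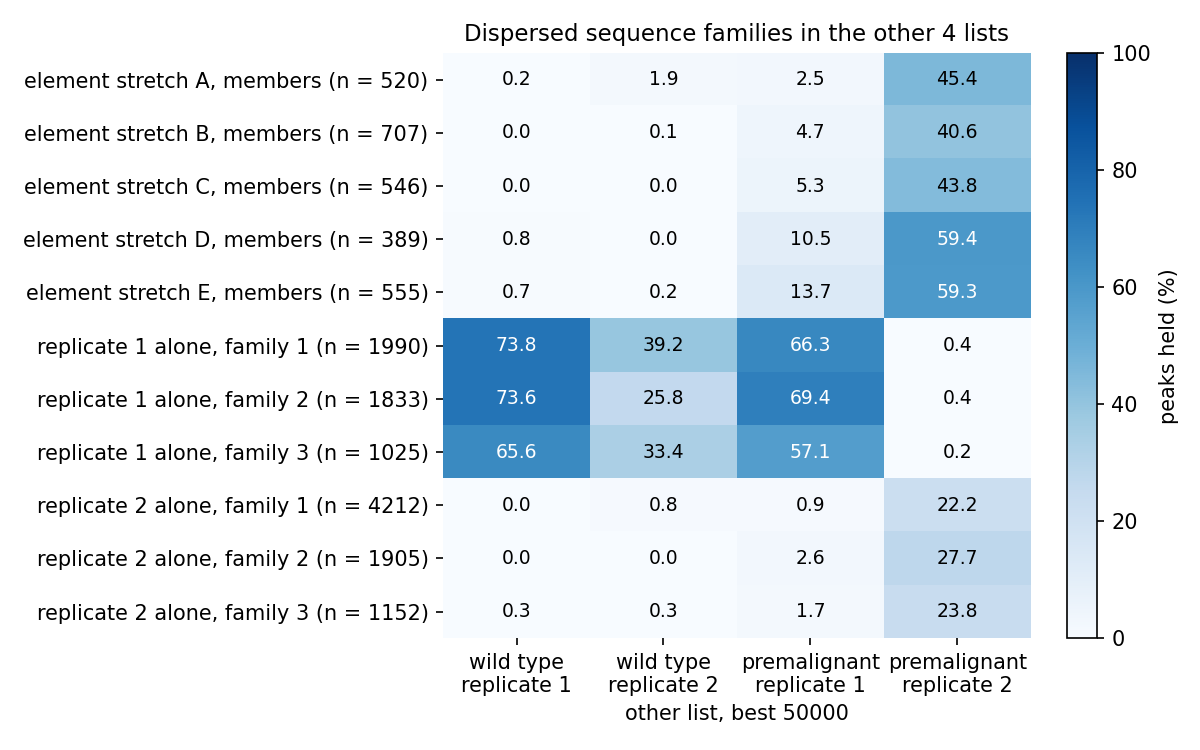
Share of peaks (%, written in each cell and shown by colour) that the best 50000 of each of the other 4 lists (columns) held within 200 bp, for members in stretches A to E of the element and for the 3 commonest dispersed families of the peaks held by replicate 1 or 2 alone (rows, with the number of peaks). The families of replicate 1 alone reach 73.8% in wild type replicate 1 and stay under 1% in premalignant replicate 2, while the members reach 59.4% there.

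Over all members, 41.9% and 41.7% lay in the best 50000 of wild type replicates 1 and 2, 44.9% in that of premalignant replicate 1 and 51.1% in that of premalignant replicate 2. Of all 50000 best peaks of malignant replicate 1 the same lists held 32.7%, 26.5%, 33.0% and 21.5%, and of its unmatched peaks 30.1%, 22.2%, 29.7% and 13.2%. All 4 lists held 2455 members (22.2%), and none held 3071 (27.8%). With premalignant replicate 2 set aside, 4315 members (39.1%) were in the other 3 lists. The members in all 4 lists carried a tandem repeat in 67.7% of cases and had median ranks of 2602 and 2563 in the malignant lists. The members in none were 96.5% high copy, with median ranks of 30324 and 25232. In the full lists, 522 members (4.73%) had no summit within 200 bp in any of the other 4 libraries, and 510 of these were high copy. The best of them lay 10.1 kb upstream of Klra3, which encodes a natural killer cell receptor, and ranked 4806 and 1650. The next, a GA repeat on chromosome 11, ranked 2304 and 5270. The share of all best peaks of malignant replicate 1 that no other list held is not given here. The 27.8% and 4.73% of members are thus not shown to be unusual.

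Single copy members lay mostly at promoters. They numbered 679, and 70.0% of them were in the promoter class, with a median GC content of 75.6%. Of all members, 586 (5.31%) lay within 1 kb of a protein-coding start, 282 upstream and 304 at or downstream of it, and 342 lay within 200 bp. Of these 342, 318 were single copy and 12 carried a tandem repeat. A GC box (GGGCGG on either strand) occurred in 86.0% of the 342 windows, against 34.4% of windows of the same length centred on all 69976 protein-coding transcript starts and 1.97% of mm9 tiles. The ETS core (CCGGAA) occurred in 14.0% against 13.5% at all starts, the CCAAT box in 7.31% against 23.8%, and the E-box (CACGTG), which MYC and other factors bind, in 3.22% against 4.94%. The windows of members are centred on summits and not on starts, so the values are not strictly alike. The 342 windows also had a median GC content of 77.6%, against 57.7% at all starts, which the motif shares do not allow for. Unmatched peaks of replicates 1 and 2 within 200 bp of a start had medians of 71.1% and 79.1%.

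**Figure D5:**
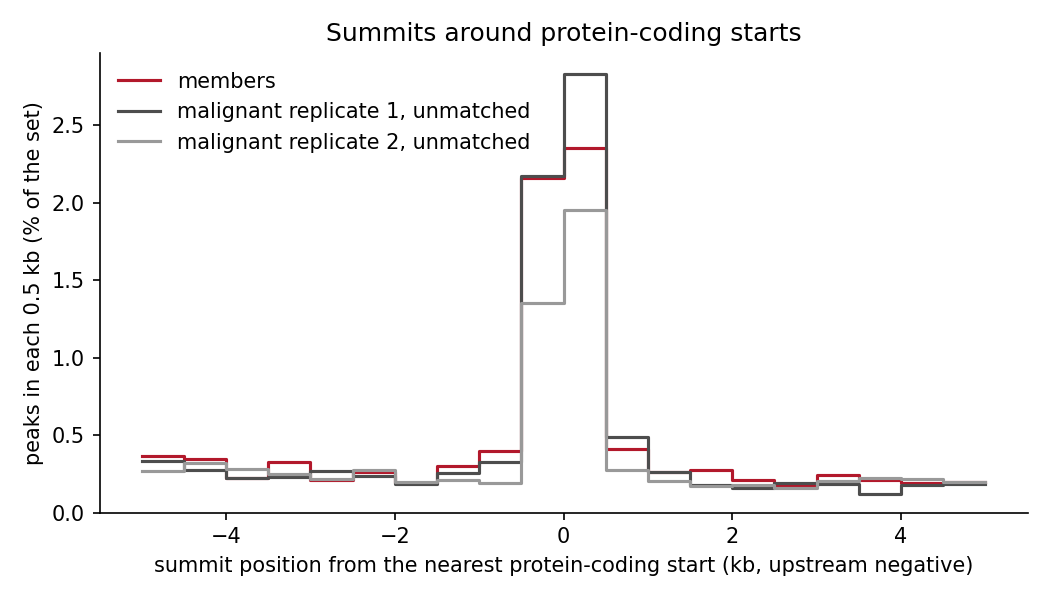
Share of each set of peaks (vertical axis, % in each 0.5 kb) by distance of the summit from the nearest protein-coding start (horizontal axis, kb) for members and for the unmatched peaks of each malignant list. All 3 sets peak at the start, with 2.16% of members in the 0.5 kb before it and 2.35% in the 0.5 kb after it.

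Protein-coding genes with a member within 1 kb of a start numbered 600 of 22380, which is 2.68% of all genes. Any best peak of malignant replicate 1 was found at the starts of 2735 genes (12.2%) and any of replicate 2 at those of 2096 (9.37%). The gene sets overlapped in 826 genes, 30.2% of those of replicate 1 and 39.4% of those of replicate 2. The best member within 1 kb of a protein-coding start lay 372 bp before Gria1, which encodes a glutamate receptor subunit, on an ACAG repeat. It ranked 32 and 108 in malignant replicates 1 and 2. The next lay 31 bp before Ino80d, a subunit of the INO80 chromatin remodelling complex, in single copy sequence of 65.7% GC. It ranked 109 and 49 in the malignant lists, 110 and 112 in wild type, and 103 and 53 in premalignant cells, so that it was near the top of every list. A member 43 bp into Tlk2, which encodes a kinase of chromatin assembly, ranked 117 and 58 in the malignant lists, 356 and 347 in wild type, and 234 and 40 in premalignant cells.

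Most of the other leading members at protein-coding starts were either GA repeats or GC-rich starts. Members on GA repeats lay 536 bp into Faim3, which encodes an Fc receptor for IgM and ranked 77 and 189, 767 bp into Pak3, a kinase gene (66 and 211), 892 bp into Cxcl5, a chemokine gene (115 and 206), and 589 bp before Trim29 (444 and 190). Others were 946 bp before Gm10281 (47 and 214) and 225 bp before Tdpoz3 (189 and 210). Tas2r134, a bitter taste receptor gene, had an ACAG repeat 788 bp upstream (91 and 215), and Gpr141 had a CA repeat 412 bp upstream (202 and 508). In single copy sequence, members lay 235 bp into Hmgxb4 (276 and 145), 217 bp into 2810407C02Rik (375 and 158), and inside Wbp4 near the start of Elf1, an ETS factor (587 and 154). The Elf1 and Wbp4 member is 1 peak, 405 bp before the start of Elf1 and 479 bp into Wbp4.

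Gene lists of the pathways around rDNA and MYC had at most 1 gene with a member each. In the RNA polymerase I machinery 1 of 15 genes had a member at a start (6.67%), against 2.68% of all genes. That gene was Ubtf itself, with a single copy summit of 78.1% GC 8 bp before a start, ranked 6376 and 47554. Among genes of RNA polymerase III, 1 of 16 had a member (Polr3c, a subunit, 30415 and 46453), as did 1 of 20 genes of ribosome assembly (Dkc1, a pseudouridine synthase, on a GA repeat, 5314 and 6540) and 1 of 85 cytosolic ribosomal protein genes. In the list for p53 and apoptosis 1 of 12 had a member (Bcl2, an inhibitor of apoptosis, 14418 and 38768), and in the list for replication and cell cycle 1 of 18 (Ccne1, cyclin E1, 6068 and 6593). No member lay at any of 12 genes of the Myc network or 18 of RNA polymerase II and general factors. Olfactory and vomeronasal receptor genes, which pre-B cells are not known to use, had members at the starts of 4 of 1435 genes (0.279%), below the 2.68% of all genes. For the short lists 1 gene more or less moves the share across that background, so their counts say nothing of the lists.

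Of 15 pre-B and B lineage genes, 1 had a member (6.67%, against 2.68% of all genes). It was Ebf1, a transcription factor that specifies the B lineage, 320 bp into the gene, ranked 2759 and 46050. Lists for T cells (7 genes), myeloid cells (6) and erythroid cells (5) had none, and lists of this size are too short to be read against 2.68%. UBTF peaks do not measure expression, so these counts do not check the identity of the cells.

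Gene bodies with most members were long ones. Gm20388 (4435 kb) held 20 members, Lrp1b (2058 kb), a lipoprotein receptor gene, 12, Macrod2 (1998 kb) 11, Odz1 (901 kb), a teneurin gene, 11, and Ctnna3 (1574 kb), an alpha catenin gene, 10. Their densities were 4.51, 5.83, 5.51, 12.2 and 6.35 members per Mb, and that of mm9 was 4.31. Across the 19 autosomes the density was 4.21 ± 0.532 (SD) per Mb, from 3.08 on chromosome 19 to 5.13 on chromosome 3. Chromosome X had 4.90 per Mb, and chromosome Y 7.40 from 20 members.

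Each malignant list also held peaks that the other lacked. Of the best 50000 of replicate 1, 17572 (35.1%) had no summit within 200 bp in the full list of replicate 2, and 21390 had a partner only beyond its best 50000. In replicate 2 these numbers were 21225 (42.5%) and 17883. In the peaks of replicate 1 alone, 40% of windows had a GC content of at least 60%, against 6.33% of members and 4.79% of the peaks of replicate 2 alone. Promoters were 9.22% of the former and 4.53% of the latter. The CCAAT box was in 34.0% and 53%, and the YY1 core (AAGATGG) in 15.8% and 20.9%, against 28.2% and 3.02% of members. In mm9 tiles the shares were 29.5% and 5.09%. Copies of dispersed sequence carried many of these motifs. In the commonest dispersed family of replicate 1 alone (1990 peaks) the YY1 core was in 90.3% and the CCAAT box in 1.21%. In that of replicate 2 alone (4212 peaks) they were in 79.1% and 96.7%. Among the first 1000 peaks of replicate 1, the 173 that were not members had 38.2% in the promoter class, compared with 6.89% of the 827 members. That gap was not seen further down: the shares were 7.17% and 6.60% from rank 1001 to 5000, and 6.42% and 8.85% from rank 5001 to 10000.

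Histone genes differed between the malignant lists. Of 67 replication-dependent histone genes, 49 had a best peak of malignant replicate 1 within 1 kb of a start and 1 had a best peak of replicate 2, and none had a member. Wild type replicates 1 and 2 had such peaks at 45 and 42 of them, premalignant replicate 1 at 53 and premalignant replicate 2 at 0. Over all protein-coding genes the best lists of malignant replicates 1 and 2 had peaks at 12.2% and 9.37% of starts, and that of premalignant replicate 2 at 4.93%. In the full lists the malignant histone numbers were 63 and 21, against 47.5% and 41.1% of all genes. At Myc itself, the best peak at the start ranked 310 in malignant replicate 1 and 196289 in replicate 2, 28225 and 7817 in wild type and 4003 in premalignant replicate 1, and premalignant replicate 2 held none. Myc is on the transgene too, and peaks at its start cannot be told apart between the transgene and the endogenous gene.

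The best peaks of replicate 1 alone were led by the start of Psmd3, which encodes a proteasome subunit, at rank 61. It ranked 249 and 666 in wild type, 267 in premalignant replicate 1 and 376320 in premalignant replicate 2, and the nearest summit of malignant replicate 2 was 1073 bp away. The others were at the start of Gm10060 (126), in an intron of Kcnip4 (131), and between genes nearest to Scel (186) and Cerk (196). The last of these was in none of the other 5 lists within 200 bp, but a summit of malignant replicate 2 lay 225 bp away, and its region held another summit that was a member and in the best 50000 of all 4 other lists. The nearest summit of malignant replicate 2 was 219 bp from the Scel peak, 390 bp from the Kcnip4 peak and 9952 bp from the Gm10060 peak. The best peaks of replicate 2 alone were in an intron of Bard1 (111), a BRCA1 partner gene, between genes on chromosome 2 (151), nearest to Pkdcc (161), on chromosome 4 (179) and in an intron of Cntnap5c (202). The Bard1 summit missed the rule narrowly, with a summit of replicate 1 at 215 bp, and ranked 155 in premalignant replicate 2 but was in no other list. The nearest summit of replicate 1 was at 213 bp on chromosome 4, 279 bp near Pkdcc, 315 bp in Cntnap5c and 8923 bp on chromosome 2. Beside the Bard1 and chromosome 4 summits lay telomere repeat members (ranks 68 and 45, and 37 and 23). Both were in the best 50000 of all 4 other lists.

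The malignant stage as a whole could be compared with the others over libraries only. A tandem repeat was at 16.2% and 10.8% of the best 50000 summits of malignant replicates 1 and 2, at 63.7% and 69.1% in wild type, and at 52.4% and 6.10% in premalignant cells. The malignant and wild type libraries did not overlap, with a difference of -52.9 percentage points between means of 13.5% ± 3.83 and 66.4% ± 3.83 (SD, n = 2 each; two-sided exact permutation test, p = 0.333, adjusted p = 0.667 over 6 tests). Promoter class shares were 6.52% and 4.94% in malignant, 9.03% and 7.19% in wild type and 8.89% and 2.81% in premalignant libraries. Median GC contents were 43.8% and 42.3%, 48.3% and 47.8%, and 47.8% and 39.8% in the same order. Both measures were lower in each malignant than in each wild type library, by 2.38 points and 4.98 points between means, with the same exact p of 0.333 (adjusted p = 0.667). With the best 20000 of each list the promoter difference turned to 0.613 and the GC difference was -1.24, and with the best summit of each region they were -0.194 and -2.49. Malignant and premalignant libraries overlapped in all 3 measures (exact permutation p = 1.00 in each). With 2 libraries against 2 the smallest p these tests allow is 0.333, so none could pass a threshold of 0.05. The wider peaks of both malignant libraries and of premalignant replicate 2 fall together with the lower tandem repeat shares, and their part in the difference was not tested.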

How the data were processed

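UBTF ChIP-seq peaks of 6 libraries of mouse pre-B cells were analysed. The study's methods state 50 bp paired reads mapped with bowtie2 (default options) to mm9 joined to an rDNA copy, removal of duplicates with Picard (1.110 in the submitters' notes, which also name CASAVA 1.8.2) and peak calls for each library with SPP. The deposited signal column holds a score of the authors' caller, used only for ranking within a list, and the authors' q-value of each peak is deposited as a linear false discovery rate. Each line is 1 summit, and summits can share a region. Depth is unknown. The lists are single-library calls before the authors' reproducibility step, and input samples were not used.

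Members were found as stated in the report, and members and lists were chosen with earlier results of these data known. Genes and classes came from GENCODE M1 and the sequence from NCBIM37 (mm9), with Python 3.11.15, numpy 2.4.6, pandas 2.3.3, scipy 1.17.1 and numba 0.67.0. A promoter took precedence over an exon and an exon over an intron. Families joined windows that shared at least 20 of the 24-mers found in 30% of the windows with the commonest 24-mer. Steps were tested on simulated data. Library values were compared by exact permutation tests, adjusted by Benjamini-Hochberg over 6 tests. Peaks were not treated as replicates. Named peaks were the 10 best members by mean rank, the 15 best protein-coding promoters, the 5 gene bodies with most members, the 5 best peaks of each list alone and of the members absent from the other libraries, and up to 4 genes of each list, of which the text gives the leading ones. The histone genes and Myc were singled out after their values were seen. Taf1a had no entry in the annotation. Some sequences at tandem repeats are not reported here.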

Additional observations from a re-analysis of the deposited data

How the results depend on the processing

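Of 132 alternative values, 75 kept within the spread of the malignant libraries (or within 1.5 times for counts) or kept their sign. Some of these 75 could not have come out otherwise. A false discovery rate limit of 0.001 before ranking left the members at 11038. The largest rate among the best peaks was already 0.000252 and 0.000208 in malignant replicates 1 and 2. The replicate block described below also leaves each difference unchanged by arithmetic. The values from these settings therefore say nothing of stability. Members numbered 3889 and 28213 with the best 20000 and 100000, and 31959 when overlapping regions counted as shared. Genes with a member at a start numbered 220 and 1233 with the best 20000 and 100000. With the best 20000, the intron, intergenic and tandem repeat shares and the median GC of members were 29%, 64.0%, 49.5% and 47.3%. With the best 100000 they were 23.9%, 70.9%, 17.3% and 41.3%. Within 100 bp they were 26.4%, 67.5%, 36.7% and 45.3%, and within 500 bp the intron share was 24.5%, the tandem repeat share 21.0% and the median GC 41.8%. With overlapping regions the promoter, exon, intron, intergenic and tandem repeat shares and the median GC were 3.71%, 0.131%, 23.1%, 73.0%, 10.6% and 41.3%. With the best summit of each region only, the promoter, intron, intergenic and tandem repeat shares and the median GC were 8.14%, 26.9%, 64.7%, 35.6% and 46.3%, and 7399 of those members were also members under the rule. Promoters of 500 bp gave 4.95% promoter, 0.281% exon and 25.9% intron, and promoters of 2500 bp gave 8.59%, 24.1% intron and 67.2% intergenic. Protein-coding genes alone gave 23.5% intron and 71.0% intergenic, and repeats of at least 30 bp 33.3%. As alternatives chosen after seeing the data, the full lists of wild type replicates 1 and 2 and premalignant replicates 1 and 2 held 50.3%, 59.1%, 51.3% and 89.4% of members, and 4315 members were in every other list with premalignant replicate 2 set aside. Members need both malignant libraries, so none can be left out of them.

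The difference in promoter share from wild type was 0.613 with the best 20000. The difference in promoter share from premalignant was 1.06 with the best 20000, 0.967 with the best summit of each region, 0.182 with promoters of 500 bp and 0.0190 with protein-coding genes. The difference in median GC from premalignant was 2.49 with the best 20000 and 0.995 with the best summit of each region. Leaving out 1 library at a time, the differences from wild type ran from -3.30 to -1.46 (promoter share), -55.6 to -50.2 (tandem repeat share) and -5.72 to -4.23 (median GC). Those from premalignant ran from -3.16 to 2.93, -39.0 to 7.37 and -4.73 to 3.23, and each was positive without premalignant replicate 1. The cause of these changes was not tested.

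The replicate numbers are not stated to mark a shared animal or batch. A replicate block leaves the differences from wild type at -52.9 (tandem repeat share), -2.38 (promoter share) and -4.98 (median GC) by arithmetic. Only the test changes, to an exact sign test over 2 pairs (p = 0.5, the smallest it allows).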
